A study of Mus musculus with 2 samples.

Results

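The cells described here are the RSPO1-Fc-treated adenoma cells in which 5 genes together were most abundant: Reg1, Reg3b, Lor, Sprr2a3 and Efemp1. Of 2767 barcodes with at least 5960 unique molecular identifiers (UMIs) in the RSPO1-Fc library, 22 had more than 20% mitochondrial UMIs and 16 had fewer than 5 UMIs of the epithelial adhesion gene Epcam. The remaining 2729 epithelial cells were ranked by the summed UMIs of the 5 genes divided by all UMIs of the cell. The top 15% were taken, which gave 409 cells, called 5-gene-high cells below, against 2320 other epithelial cells of the same library. The organoids came from intestinal adenomas of C57BL/6 ApcMin/+ mice aged 17 weeks, whose cells carry the Min allele of Apc in both cultures. One culture received RSPO1-Fc at 10 ug/ml by the treatment protocol, although another label of that sample writes the same number in mg/ml, and the control culture received none. RSPO1-Fc joins R-spondin 1, which amplifies Wnt signalling at the cell surface, to an antibody Fc part. Each culture gave 1 single-cell 3′ library. Differences therefore have no replicate check, cells were not treated as replicates and no p-value was computed. The number of mice behind a culture is not given in the sources used here.

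The 5-gene-high cells had a median of 26070 UMIs and 5012 genes, and the other epithelial cells 22998.5 UMIs and 4723 genes. Mitochondrial shares were alike, with medians of 3.31% and 3.40%. No barcode was shared by the cells of the RSPO1-Fc and control libraries (0 barcodes). Levels are UMIs summed over a set of cells and scaled to a total of 1000000 UMIs (CPM), and intervals are 95% intervals that cover counting error only, not the spread between cells.

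The 5 genes belong to families with different roles. Reg1 and Reg3b encode small secreted C-type lectin proteins, and Reg3b and its neighbour Reg3g act as antibacterial proteins that gut epithelium makes during infection and injury. Lor encodes loricrin and Sprr2a3 a small proline-rich protein, both components of the cornified envelope that is cross-linked under the membrane of squamous cells. Sprr genes are also known from stressed and regenerating gut epithelium. Efemp1 encodes fibulin-3, a secreted matrix glycoprotein.

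The genes lie in a few clusters of GRCm38 (GENCODE M21), and all 5 are protein coding. Reg1 (chr6:78422711-78428667) was 49.2 kb from Reg3b (chr6:78370657-78373466) and 37.6 kb from Reg3g (chr6:78466269-78468872). Lor (chr3:92080271-92083142) was 202 kb from Sprr2a3 (chr3:92285417-92291405), and Sprr1a (chr3:92483952-92485895) was 193 kb from Sprr2a3. Efemp1 stands alone among them on another chromosome (chr11:28853204-28926743). The 100 bases before the RefSeq start of the genes on which the results turn are shown 5′ to 3′ on the strand of the gene (GRCm38.p6), because they belong to the genes that chose the cells and to their neighbours. Capitals mark the TATA box letters TATAAA and the AP-1 motif letters TGANTCA, searched on both strands along with the STAT motif letters TTCNNNGAA.
Reg1 (chr6:78425883-78425982, plus strand): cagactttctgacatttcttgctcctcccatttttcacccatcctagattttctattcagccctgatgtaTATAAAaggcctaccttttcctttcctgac
Reg3b (chr6:78370785-78370884, plus strand): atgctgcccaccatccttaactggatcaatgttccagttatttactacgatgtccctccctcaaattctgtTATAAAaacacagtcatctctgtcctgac
Reg3g (chr6:78468875-78468974, minus strand): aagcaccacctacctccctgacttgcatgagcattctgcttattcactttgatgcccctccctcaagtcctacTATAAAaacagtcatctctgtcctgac
Lor (chr3:92083143-92083242, minus strand): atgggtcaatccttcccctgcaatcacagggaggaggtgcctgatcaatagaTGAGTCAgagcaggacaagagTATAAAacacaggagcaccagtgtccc
Sprr1a (chr3:92485882-92485981, minus strand): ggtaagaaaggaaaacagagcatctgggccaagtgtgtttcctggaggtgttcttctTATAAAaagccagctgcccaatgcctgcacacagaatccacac
Sprr2a3 (chr3:92285204-92285303, plus strand): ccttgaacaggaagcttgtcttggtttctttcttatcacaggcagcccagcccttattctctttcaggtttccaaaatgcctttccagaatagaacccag
TATAAA was found in the windows of Reg1, Reg3b, Reg3g, Lor and Sprr1a, and in 5.56% of 32851 RefSeq windows of the same length. It was absent from the windows of Sprr2a3 and Efemp1, the latter not printed. RefSeq and GENCODE starts differ for some of these genes. The Sprr2a3 window ends at 92285303, before the GENCODE start at 92285417, and the bases next to that start were not searched. The windows of Reg1 and Reg3b lie inside the GENCODE spans of these genes. TGANTCA was found in the Lor window and in 2.73% of all windows. TTCNNNGAA was in none of those printed and in 2.55% of all windows. Aligned with gaps, the windows of Reg3b and Reg3g were identical at 73.0% of positions, and those of Reg3g and Lor at 59.0%. A match is a description of letters only.

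The score, in UMIs of the 5 genes per 1000000 UMIs, ran from 1538 in the lowest 5-gene-high cell to 16575 in the highest, with a median of 2458, against a median of 387 in the other cells. The highest cell left out stood at 1537, and 53 cells inside and 78 outside lay within 10% of the limit, so the limit divides a continuous range. The levels that chose the cells are given as description. Reg1 stood at 265 CPM in 5-gene-high cells and 27.5 CPM in the others, Reg3b at 799 and 77.8, Lor at 564 and 155, Sprr2a3 at 1399 and 256, and Efemp1 at 49.7 and 22.3 CPM. Per cell, the lowest, median and highest levels in 5-gene-high cells were 0, 48.4 and 4404 CPM for Reg1 and 0, 156 and 12063 CPM for Reg3b. They were 0, 279 and 4379 CPM for Lor, 0, 1072 and 7555 CPM for Sprr2a3, and 0, 33.7 and 406 CPM for Efemp1. Each of the 5 genes was thus at 0 in some 5-gene-high cells: 142 had no Reg1 UMI, while 402 of 409 had a Sprr2a3 UMI. All 5 genes were detected in 145 of them (35.5%) and in 218 of the other cells (9.40%), at a somewhat lower median depth in the latter. Sprr2a3 gave 45.5% of the UMIs of the 5 genes in these cells, Reg3b 26.0%, Lor 18.3%, Reg1 8.62% and Efemp1 1.62%.

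**Figure D1:**
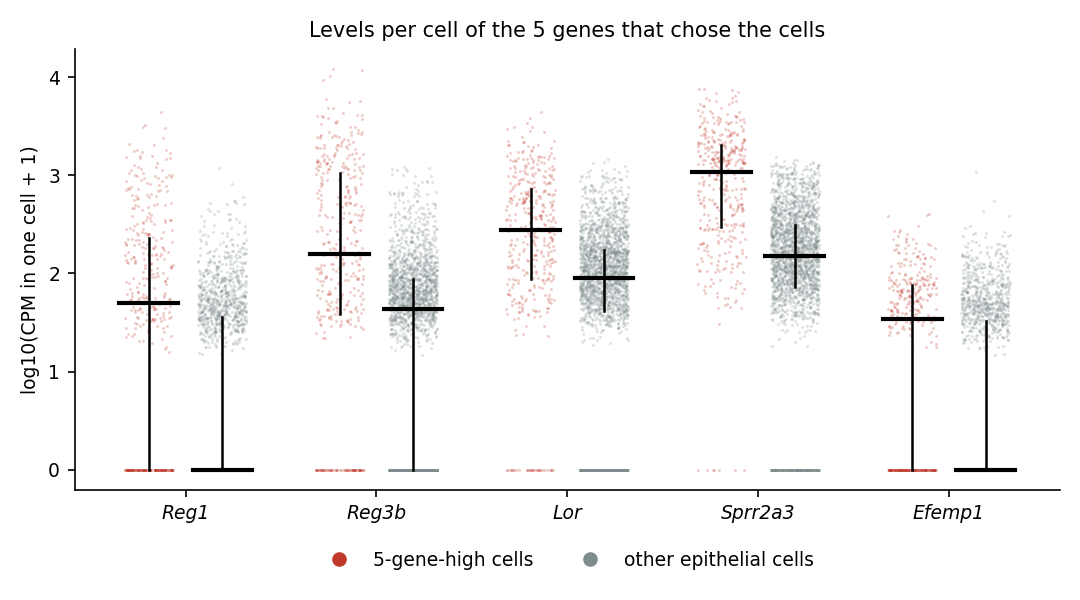
Level of each of the 5 genes in each cell, as log10(CPM + 1), for 409 5-gene-high and 2320 other epithelial cells; points are cells, thick bars medians and thin bars the middle 50% of cells. Reg1 and Efemp1 have a median of 0 in the other cells, and every gene is at 0 in some 5-gene-high cells.

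Sprr2a3 carries an uncertainty of its own, since its copies Sprr2a1 and Sprr2a2 are nearly identical. Of 410 stretches of 91 bases in its last 500 transcript bases, 228 (55.6%) also occur in each of the copies. Sprr2a1 stood at 4.76 and 1.44 CPM and Sprr2a2 at 3.31 and 1.06 CPM in 5-gene-high and other cells. How reads were split between the copies was not tested.

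The label of these cells, Reg1 and loricrin-high, names genes that gave most of the UMIs of the 5 genes in only a minority of them. A cell was called led by a gene when it gave over 50% of the UMIs of the 5 genes there, with Reg1 and Reg3b counted together. This division was made after the data had been seen. Sprr2a3 led 194 of the 409 cells (47.4%, 42.5 to 52.4), the Reg genes led 118 (28.9%, 24.5 to 33.5) and Lor led 56 (13.7%, 10.5 to 17.4). Efemp1 led 0 (which allows a share of up to 0.898%) and 41 (10.0%, 7.29 to 13.4) had no leading gene. In Reg-led cells Reg3b stood at 2235 CPM and Sprr2a3 at 347 CPM, and in Sprr2a3-led cells at 167 and 2481 CPM. Lor-led cells held Lor at 1732 CPM, Sprr2a3 at 487 CPM and Reg3b at 114 CPM. Of the 194 Sprr2a3-led cells, 109 had no Reg1 UMI and 53 no Reg3b UMI. A gene that did not lead could still be raised. Sprr2a3-led cells held Lor at 268 CPM and Reg1 at 55.5 CPM, against 155 and 27.5 CPM in the other epithelial cells. The summed Reg genes passed 500 CPM in 176 of the 5-gene-high cells and Sprr2a3 in 266, and both did in 67. Since the division rests on the same 5 genes, these values describe it and support nothing.

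**Figure D2:**
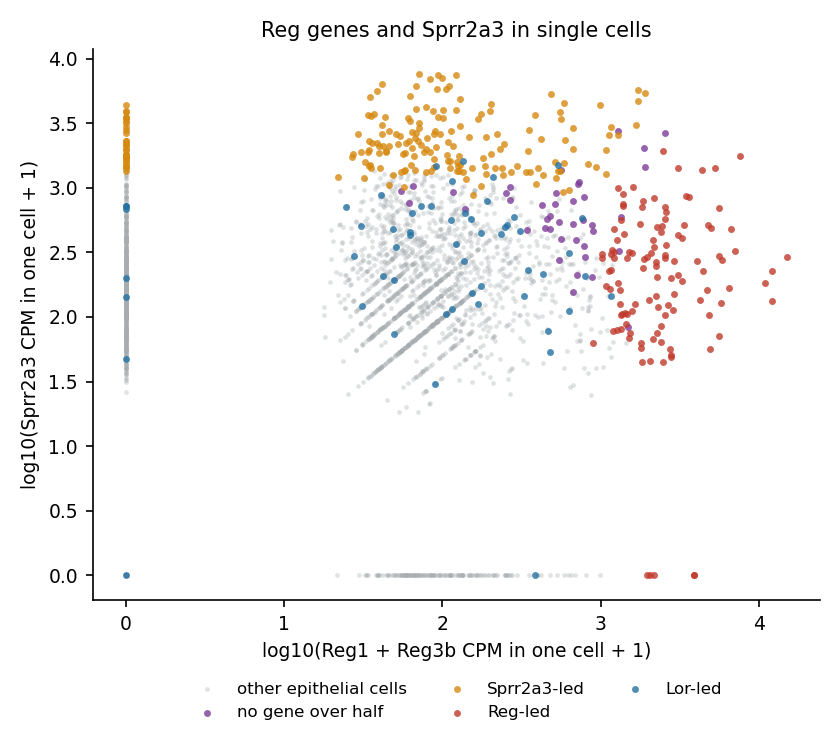
Summed Reg1 and Reg3b level against the Sprr2a3 level in each epithelial cell of the RSPO1-Fc library, both as log10(CPM + 1), coloured by the leading gene. The 118 Reg-led cells lie to the right and the 194 Sprr2a3-led cells at the top, with 67 cells above 500 CPM of both.

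Each gene was also set aside in turn, and the top 409 cells were chosen by the other 4, so that its own UMIs did not enter the choice. Reg1 then stood at 232 CPM in the chosen cells and 34.4 CPM in the rest (6.76-fold higher, 6.38 to 7.16), and Reg3b at 492 and 139 CPM (3.53-fold, 3.41 to 3.65). Efemp1 stood at 48.0 and 22.7 CPM (2.12-fold, 1.92 to 2.34), and Lor at 348 and 199 CPM (1.75-fold, 1.68 to 1.81). Sprr2a3 showed the smallest ratio of the 5 genes, at 568 and 423 CPM (1.34-fold, 1.31 to 1.38). The per-cell medians gave another order, with Sprr2a3 at 258 and 166 CPM and Reg3b at 67.5 and 45.5 CPM in the chosen cells and the rest. Across all 2729 cells, Spearman's rho between CPM levels was 0.31 for Reg1 and Reg3b, 0.30 for Lor and Efemp1, and 0.10 for Sprr2a3 with Reg1 and with Reg3b. It was 0.20 for Sprr2a3 with Efemp1, 0.18 for Sprr2a3 with Lor and 0.15 for Reg3b with Lor. These are descriptions of 1 library, in which the points share free RNA and differ in depth.

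Against this division, few genes outside the rule differed strongly. Of 5791 genes with at least 20 CPM in either set, 12 were at least 2-fold higher in 5-gene-high cells (0.207%) and 41 at least 2-fold lower (0.708%). The 12 hold the 5 genes of the rule and 7 others: Ccl5, Reg3g, Tff1, Sprr1a, Serpinb7, Gsta4 and Dok2. Ccl5, a chemokine of T cells, owed 584 of its 616 UMIs to a single cell. Without the highest cell of each set, its log2 ratio was −0.08, and Dok2, an adaptor of tyrosine kinase signalling, was 1.98-fold higher. With Sprr2a3 out of the score, the log2 ratio of Dok2 was 0.17. Nothing is read from these shares, since the same cells define both the score and these ratios.

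Reg3g, the antibacterial lectin next to Reg1, stood at 106 CPM in 5-gene-high and 27.4 CPM in other cells (3.88-fold, 3.60 to 4.18). Tff1, a secreted peptide of gastric surface mucus cells, stood at 46.1 and 16.5 CPM (2.79-fold, 2.5 to 3.1), and 141 of its 542 UMIs came from 1 cell. Sprr1a, another cornified envelope precursor, stood at 174 and 71.1 CPM (2.45-fold, 2.32 to 2.58), with 286 of 2048 UMIs from 1 cell. Without their highest cells Tff1 and Sprr1a stood at 2.17-fold and 2.16-fold. The 2-fold difference of each depended on the score: the log2 ratio of Reg3g was 0.31 with Reg3b out of the score, that of Sprr1a 0.11 with Sprr2a3 out of it, and that of Tff1 0.06 with a score from ranks. The glutathione transferase Gsta4 stood at 178 and 85.9 CPM (2.07-fold, 1.96 to 2.18) and the serine protease inhibitor Serpinb7 at 27.8 and 12.8 CPM (2.17-fold, 1.90 to 2.47). Both stood near the 2-fold limit and fell short of it in some alternatives, with log2 ratios down to 0.64 for Gsta4 and 0.73 for Serpinb7. Among several genes under the 2-fold limit were Krt20, a keratin of differentiated surface epithelium (114 and 58.0 CPM), and the membrane protein gene Emp1 (147 and 80.7 CPM). The log2 ratio of Krt20 moved from 0.97 to 0.28 with Sprr2a3 out of the score. The retinal dehydrogenase gene Aldh1a1 (19.2 and 9.61 CPM) was also under it, and below the 20 CPM limit.

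**Figure D3:**
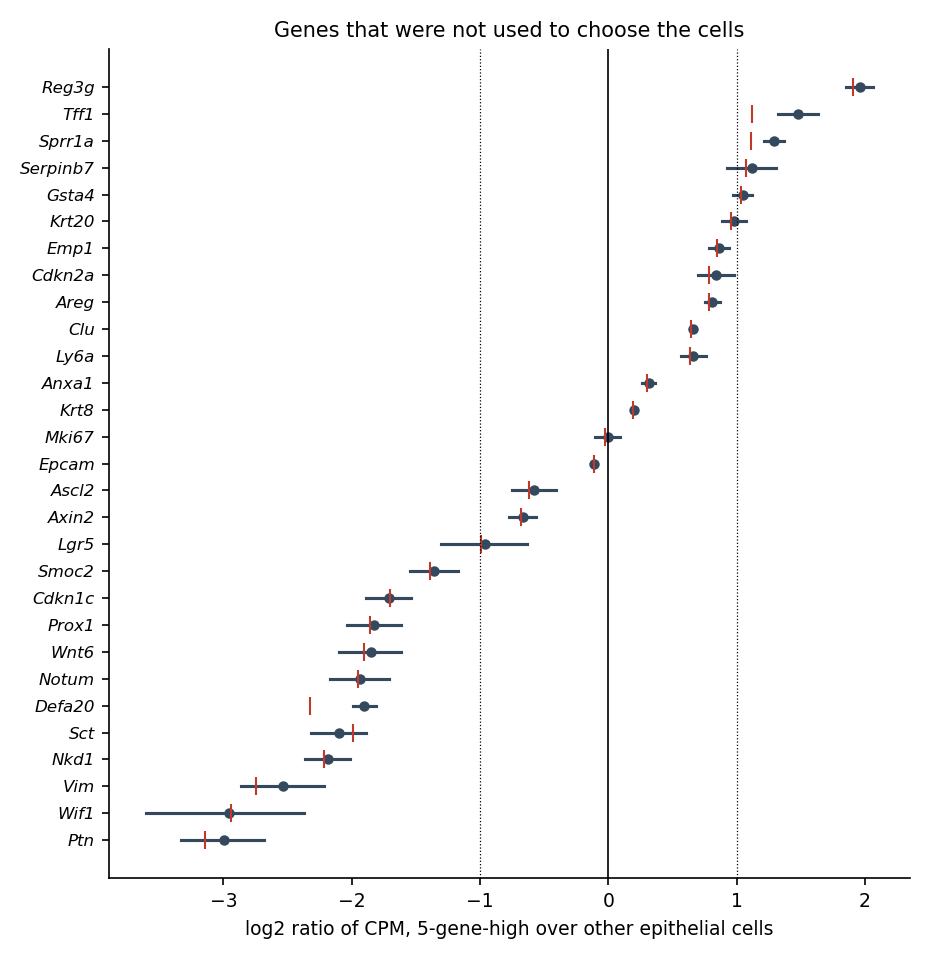
Log2 ratio of summed CPM in 409 5-gene-high over 2320 other epithelial cells for 29 chosen genes that did not enter the score (Ccl5 is not drawn); bars are 95% counting intervals, red ticks the ratio without the highest cell of each set and dotted lines a 2-fold difference. Of the genes drawn, Reg3g is the highest at 3.88-fold, Ptn the lowest at 7.97-fold lower, and Mki67 and Epcam lie near 0.

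The 3 kinds of 5-gene-high cells did not share their other genes alike, as their levels against the same 2320 cells show. These comparisons share their reference, so each is given by its own values. In Reg-led cells 11 of 5814 genes were at least 2-fold higher (0.189%) and 38 lower (0.654%). In Lor-led cells 42 of 5936 were higher (0.708%) and 68 lower (1.15%), and in Sprr2a3-led cells 43 of 5860 were higher (0.734%) and 58 lower (0.99%). The Lor-led set is the smallest, so its ratios are the least precise.

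Reg3g was high in the Reg-led cells, at 303 CPM, against 22.8 CPM in Lor-led, 19.8 CPM in Sprr2a3-led and 27.4 CPM in the other epithelial cells. It was detected in 100 of the 118 Reg-led cells. The chloride channel gene Cftr stood at 21.2 CPM there and 8.67 CPM in the other epithelial cells (2.44-fold, 1.89 to 3.12). Sprr1a had the opposite pattern, at 56.6 CPM in Reg-led cells, 232 CPM in Lor-led and 250 CPM in Sprr2a3-led cells, although 1 Lor-led cell held 174 of the 396 UMIs of its set. Lor-led cells had the highest level of Areg, the EGF receptor ligand amphiregulin (359 CPM, against 228, 279 and 154 CPM in Reg-led, Sprr2a3-led and other cells). They also had the highest level of Krt4, a keratin of stratified mucosa (101 CPM, against 47.2, 45.6 and 37.8 CPM).

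Several genes, chosen after their values had been seen, were highest in Sprr2a3-led cells. Clu, the secreted chaperone clusterin that marks revival cells of damaged crypts, stood at 1963 CPM there, 771 CPM in Reg-led, 831 CPM in Lor-led and 858 CPM in other cells. Anxa1, the phospholipid-binding protein annexin A1, stood at 510, 243, 240 and 297 CPM in the same order. Krt20 stood at 155, 66.1, 82.0 and 58.0 CPM, and Anxa10, an annexin of gastric epithelium, at 29.3, 4.58, 5.86 and 8.41 CPM. Tmsb4x, which encodes the actin-binding thymosin beta 4, stood at 13076, 5385, 7538 and 6699 CPM. For Clu, Anxa1 and Tmsb4x the Reg-led cells lay below the other epithelial cells, so the higher sums of all 5-gene-high cells were carried mainly by the Sprr2a3-led ones. With Sprr2a3 taken out of the score, the log2 ratio of Clu moved from 0.66 to −0.18 and that of Tmsb4x from 0.50 to −0.13.

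**Figure D4:**
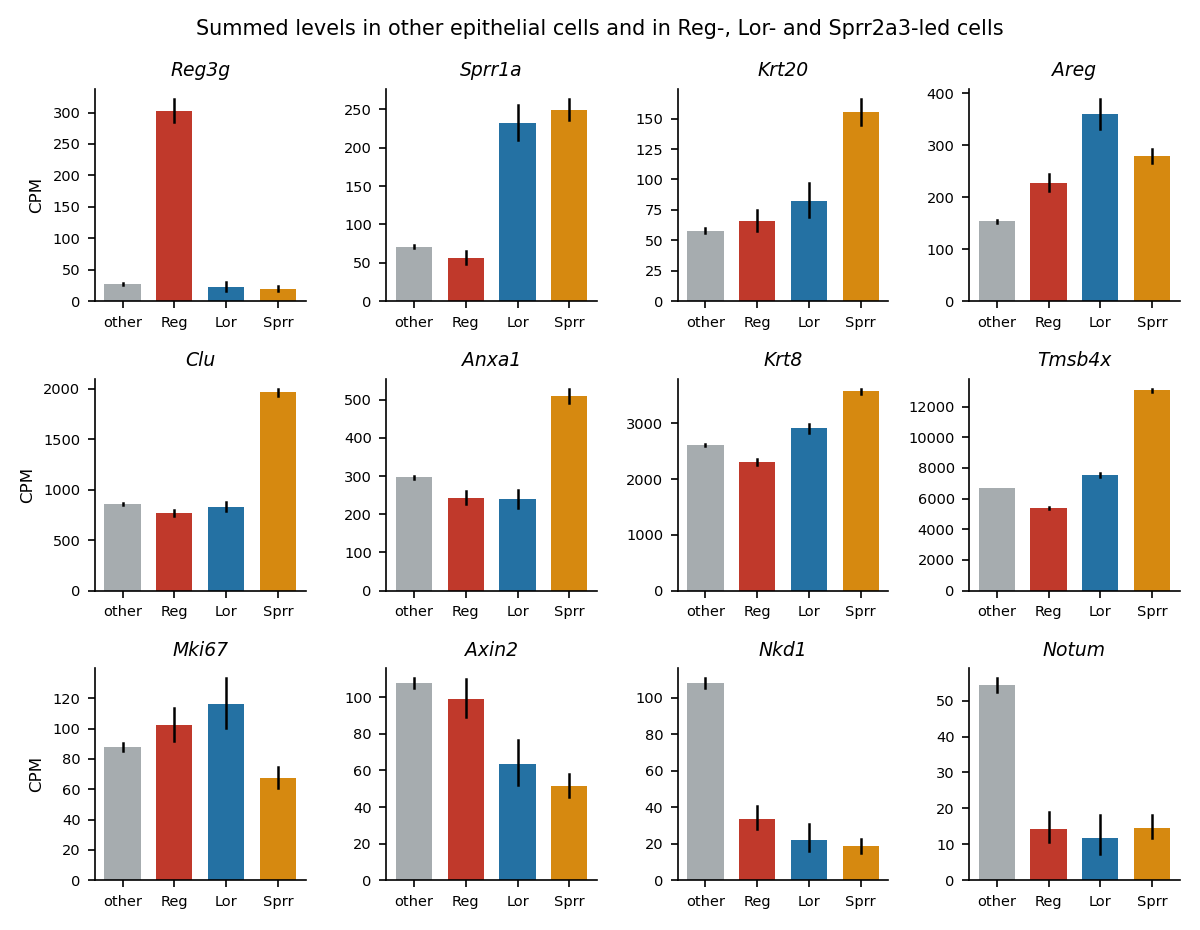
Summed level in CPM of 12 genes in the other epithelial cells and in Reg-led, Lor-led and Sprr2a3-led cells (2320, 118, 56 and 194 cells); lines are 95% Poisson intervals. Reg3g is high in Reg-led cells, Clu, Anxa1 and Tmsb4x in Sprr2a3-led cells, and Nkd1 and Notum are low in all 3 sets.

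Genes switched on by Wnt/β-catenin signalling were mostly lower. Of 20 listed target genes, 19 reached 5 CPM in either set, and 17 of these were lower and 2 higher, where 52.0% of all 9570 genes at that level were lower and 48.0% higher. The list had a median log2 ratio of −0.66, against −0.01 over all 9570 genes. The 5 that were at least 2-fold lower are Wif1, Nkd1, Notum, Prox1 and Lef1 (at this level 1.53% of all genes were 2-fold lower and 0.272% 2-fold higher). Wif1, a secreted Wnt inhibitor, stood at 2.04 and 15.8 CPM in 5-gene-high and other cells (7.76-fold lower, 5.18 to 12.2). Nkd1, a feedback inhibitor inside the cell, stood at 23.8 and 108 CPM (4.54-fold lower, 4.03 to 5.14). Notum, a secreted enzyme that inactivates Wnt proteins, stood at 14.2 and 54.4 CPM (3.83-fold lower, 3.28 to 4.50), and Prox1, a transcription factor of adenomas, at 16.3 and 57.7 CPM (3.54-fold lower, 3.06 to 4.11).

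Nkd1 was low in each kind of 5-gene-high cell, at 33.7 CPM in Reg-led, 22.3 CPM in Lor-led and 18.5 CPM in Sprr2a3-led cells. Notum stood at 14.3, 11.7 and 14.7 CPM in the same order. Axin2, the feedback gene most often used as a Wnt readout, differed less, at 67.8 and 108 CPM (1.59-fold lower, 1.48 to 1.71). In Reg-led cells it stood at 99.2 CPM, close to the other epithelial cells, and in Sprr2a3-led cells at 51.5 CPM. When each cell was thinned to 5000 UMIs, Nkd1 was detected in 10.0% of 5-gene-high and 27.2% of other cells, Notum in 6.85% and 19.4%, and Axin2 in 27.4% and 37.8%. Ccnd1, which encodes cyclin D1, and Cd44 were the 2 higher members, at 258 and 175 CPM and at 88.7 and 84.9 CPM. The summed list stood at 760 and 974 CPM over the sets, and its per-cell medians of 717 and 825 CPM differed by less.

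The stem cell list was lower too, with 7 of 8 measured members below the other cells (52.0% of all genes at 5 CPM or more) and a median log2 ratio of −0.61. Its members Lgr5, Ascl2 and Axin2 are also in the Wnt list. Smoc2, a secreted protein of crypt base cells, stood at 21.5 and 55.1 CPM (2.56-fold lower, 2.25 to 2.92, with a log2 ratio of −0.95 once Sprr2a3 was out of the score). Lgr5, the R-spondin receptor of stem cells, stood at 7.05 and 13.7 CPM (1.94-fold lower, 1.55 to 2.47) and in Reg-led cells at 13.4 CPM. Olfm4, a further crypt base gene, had 0 CPM in both sets. Wnt6, a Wnt ligand of the Paneth cell region, stood at 12.9 and 46.6 CPM (3.61-fold lower, 3.06 to 4.27), and Cdkn1c, a cell cycle inhibitor, at 24.1 and 79.1 CPM (3.28-fold lower, 2.91 to 3.71).

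Among genes at 20 CPM or more, outside the rule and apart from Ccl5, the largest ratio in either direction was that of Ptn, the growth factor pleiotrophin, at 7.05 and 56.2 CPM (7.97-fold lower, 6.41 to 10.0). The intermediate filament gene Vim stood at 7.05 and 40.8 CPM, Myl9, a myosin light chain, at 53.8 and 152 CPM, and Mt3, a metallothionein, at 5.18 and 32.6 CPM, with 310 of the 1906 UMIs of the other cells in 1 cell. Of the TGF-beta and BMP list 10 of 13 measured members were lower (52.0% of all genes at 5 CPM or more), with a median log2 ratio of −0.46. Id3, a BMP target, stood at 137 and 241 CPM (1.76-fold lower, 1.67 to 1.86), the homeobox gene Msx1 at 29.1 and 64.8 CPM (2.23-fold lower, 1.99 to 2.50, with a log2 ratio of −0.63 once Sprr2a3 was out of the score) and the ligand Tgfb2 at 2.72 and 11.5 CPM. The receptor Tgfbr2 was higher, at 82.3 and 58.5 CPM.

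Paneth cell genes had lower sums but similar levels in most cells. Among 10 measured genes, 9 stood below the other cells, 8 of them by 2-fold or more (52.0% and 1.53% of all genes at 5 CPM or more), and the median log2 ratio was −1.38. Yet the summed list had per-cell medians of 449 CPM in 5-gene-high and 480 CPM in other cells. Defa24, an alpha-defensin, stood at 120 and 361 CPM, with 5082 of the 21103 UMIs of the other cells in 1 cell, and was detected in 36.2% and 36.3% of thinned cells. Defa20 stood at 90.5 and 338 CPM and was detected in 26.2% and 27.0%. Lyz1, Paneth cell lysozyme, stood at 47.2 and 104 CPM, and Ang4, an antimicrobial ribonuclease, at 5.95 and 26.1 CPM. Defensin RNA was thus detected alike in both sets, while the sums differed. Alpha-defensin genes are near copies of each other, so how their UMIs were split is uncertain.

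Sct, the hormone secretin, stood at 16.5 and 70.6 CPM, with 387 of 4130 UMIs in 1 of the other cells, and the neuropeptide gene Npy at 9.43 and 57.6 CPM, with 592 of 3370 UMIs in 1 cell. In thinned cells Sct was detected in 6.11% of 5-gene-high and 10.9% of other cells, and Npy in 4.65% and 8.15%. The 2-fold difference of Sct was lost in 5 alternatives, and its log2 ratio moved from −2.03 to −0.39 when cells were chosen on one part of the UMIs and read in the other. The median of the 4 measured enteroendocrine genes moved from −1.74 to −0.75 in the same alternative. Chgb, a granin of enteroendocrine granules, stood at 0.935 and 5.37 CPM. Pyy, peptide YY of the distal gut, went the other way at 94.9 and 54.1 CPM (1.76-fold higher, 1.64 to 1.88). It stood at 187 CPM in Sprr2a3-led cells, 15.7 CPM in Reg-led and 15.8 CPM in Lor-led cells. In the Sprr2a3-led set 89 cells had a Pyy UMI, and 1 cell held 170 of the 1019 UMIs. Its log2 ratio moved from 0.80 to −0.85 when Sprr2a3 was taken out of the score.

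Genes of fetal and regenerating gut epithelium were mostly higher. Of 18 measured members 16 were higher (48.0% of all genes at 5 CPM or more), with a median log2 ratio of 0.53, and per-cell medians of the summed list were 11551 and 7618 CPM. The difference followed the leading gene: the medians were 7944 CPM in Reg-led, 9585 CPM in Lor-led and 14554 CPM in Sprr2a3-led cells. Apart from Sprr1a, which is in this list and in the Sprr cluster, no measured member was 2-fold higher. Areg stood at 270 and 154 CPM, Msln, which encodes mesothelin, at 309 and 186 CPM, Clu at 1355 and 858 CPM, Ly6a, the fetal and injury marker Sca-1, at 101 and 63.5 CPM, and Anxa1 at 369 and 297 CPM. Il33, an alarmin cytokine, was lower at 5.69 and 13.0 CPM. Ly6a was alike in Reg-led, Lor-led and Sprr2a3-led cells, at 105, 106 and 104 CPM.

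The abundant keratins were those of simple epithelium, and some of stratified epithelium were present. Of 6 measured simple keratins 5 were higher (48.0% of all genes at 5 CPM or more), with per-cell medians of the sum of 8613 and 6165 CPM. Krt19 stood at 2863 and 2144 CPM, Krt7 at 1235 and 876 CPM, and Krt8 at 3004 and 2612 CPM. In Reg-led cells Krt8 was 2302 CPM, below the other epithelial cells, and with Sprr2a3 out of the score its log2 ratio moved from 0.20 to −0.05. Among the genes that define basal squamous cells, Krt5, Trp63 and Col17a1 had 0 UMIs in 5-gene-high cells, and Krt14 stood at 8.75 and 9.40 CPM. Krt4 stood at 54.9 and 37.8 CPM (1.45-fold higher, 1.33 to 1.59), with a UMI in 213 of the 409 cells.

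The cornified envelope list showed a partial set. Of 31 members 8 were measured, and of the 6 that were not in the rule 4 were higher and 3 at least 2-fold higher (48.0% and 0.272% of all genes at 5 CPM or more): Sprr1a, Sprr2b (10.8 and 2.62 CPM) and Ivl, the envelope precursor involucrin (7.31 and 2.51 CPM). The median log2 ratio of the 6 was 0.79. With Sprr2a3 out of the score the log2 ratio of Sprr2b moved from 1.71 to 0.14. Flg, Krt1, Tgm3, Dsg1a and Dsc1 of terminal squamous cells were among 10 members with 0 UMIs in 5-gene-high cells. The cells thus carried loricrin and Sprr transcripts along with Epcam (1464 and 1578 CPM) and simple keratins, with 0 UMIs of Krt5, Trp63, Flg and Krt1 but some of Krt14. They are called by their genes and given no squamous name.

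Of the Reg family, Reg1, Reg3b and Reg3g were abundant, Reg4 stood at 5.01 and 5.92 CPM, and Reg2 and Reg3d had 0 UMIs in 5-gene-high cells. Few other inducible defence genes reached 5 CPM: of 22 antimicrobial and acute phase genes 3 did, Pigr, the receptor that carries IgA, at 17.6 and 32.7 CPM, Lypd8 at 26.3 and 38.9 CPM and Dmbt1 at 12.5 and 8.58 CPM. The STAT3 pathway list had a median log2 ratio of 0.14, the interferon list 0.11 and the MHC class I list 0.02. Socs3, a feedback target of STAT3, stood at 6.29 and 4.45 CPM. Markers of the exocrine pancreas, where Reg1 is abundant in healthy animals, were at 0 UMIs for 9 of 10 genes. The remaining gene, Cela1, held all 330 UMIs of this list in 5-gene-high cells. The summed list stood at 28.0 and 43.5 CPM.

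Cycling genes differed little in sum but by leading gene. Mki67 stood at 87.5 and 87.9 CPM (ratio of 5-gene-high to other cells 0.996, 0.931 to 1.07), and of 26 S phase genes 16 were higher (48.0% of all genes) with a median log2 ratio of 0.05. Of 28 G2 and M phase genes 20 were lower (52.0% of all genes), with a median log2 ratio of −0.09. The per-cell medians went the other way, at 2127 CPM in 5-gene-high and 1577 CPM in other cells for the summed G2 and M phase genes and 1124 and 918 CPM for the S phase genes. By leading gene, the G2 and M phase medians were 2910 CPM in Reg-led, 2626 CPM in Lor-led, 1276 CPM in Sprr2a3-led and 1577 CPM in other cells. For the S phase genes they were 1376, 1279, 726 and 918 CPM in the same order. Mki67 stood at 102, 116 and 67.2 CPM in Reg-led, Lor-led and Sprr2a3-led cells. Cdkn2a, a cell cycle inhibitor gene, was 28.9, 44.5 and 61.7 CPM in these sets and 26.9 CPM in other cells, and Cdkn2b was 31.5, 41.6, 96.7 and 45.0 CPM.

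Other lists moved little. Among all genes at 5 CPM or more, 48.0% were higher and 52.0% lower. Of 18 cholesterol and fatty acid synthesis genes 15 were higher, with a median log2 ratio of 0.13. Fasn, which encodes fatty acid synthase, was among them at 111 and 90.8 CPM. Of 20 hypoxia and glycolysis genes 15 were lower with a median of −0.10, and Bnip3, a hypoxia-induced mitophagy receptor, was 2.05-fold lower (1.85 to 2.28) at 34.3 and 70.5 CPM, with a log2 ratio of −0.57 once Sprr2a3 was out of the score. Of 12 measured secreted matrix genes other than Efemp1, 9 were higher with a median of 0.34, led by the laminin chain Lama3 (24.9 and 16.9 CPM). With Sprr2a3 out of the score, the log2 ratio of Lama3 moved from 0.53 to −0.09. The median of the list with Efemp1 moved from 0.35 to −0.09.

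When all 2729 cells were put in 10 groups by score, the lists differed along the range of scores and not only at the limit. The per-cell median of the Wnt target sum was 1151 CPM in the lowest group and 706 CPM in the highest. Most of this fall lay in the lower groups, with 771 CPM in group 5. Groups 6, 7 and 8, which hold no 5-gene-high cell, stood at 753, 718 and 743 CPM. Low Wnt target sums were thus shared with other epithelial cells of middle and higher score. The stem cell sum went from 474 to 233 CPM and the fetal and regenerative sum from 7155 to 11612 CPM. The S phase sum went from 684 to 1137 CPM, with its highest value of 1226 CPM in group 8. Depth moved with the score as well, with median UMIs of 17816 in the lowest and 26513 in the highest group, and its part in these trends was not tested.

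**Figure D5:**
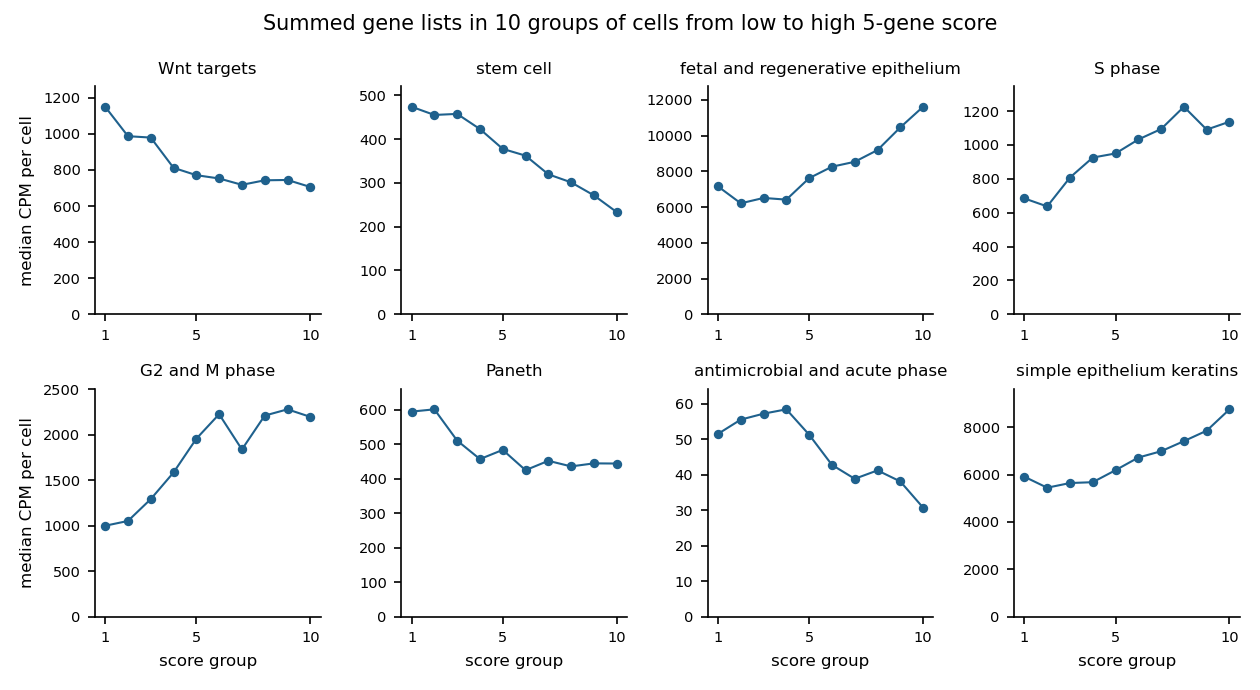
Per-cell median of the summed CPM of 8 gene lists in 10 groups of 272 or 273 epithelial RSPO1-Fc cells, from the lowest to the highest 5-gene score. The Wnt target and stem cell sums go from 1151 to 706 and from 474 to 233 CPM between the first and last group, and the fetal and regenerative sum goes from 7155 to 11612 CPM. The Wnt target sum is already at 771 CPM in group 5.

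In the control library, 1895 cells passed the same limits, with a median of 27614 UMIs and 6.22% mitochondrial UMIs. Of these, 20 (1.06%, 0.646 to 1.63) reached the score of the lowest 5-gene-high cell, and 1345 had no UMI of any of the 5 genes. Lor stood at 0.866 CPM, with at most 2 UMIs in any control cell, Reg1 at 1.00 CPM and Efemp1 at 0.433 CPM. Sprr2a3 stood at 68.9 CPM and Reg3b at 29.0 CPM, in 477 and 93 cells. Reg3g stood at 64.2 CPM over all these control cells. In the RSPO1-Fc library it stood at 106 CPM in 5-gene-high and 27.4 CPM in other epithelial cells, each only a part of that library. The matrix of the control library differs from the other in its software, gene list and number of barcodes, so library chemistry and RSPO1-Fc cannot be told apart here.

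RNA outside cells held transcripts of the Reg genes. In barcodes of 1 to 100 UMIs of the RSPO1-Fc library, Reg1 stood at 120 CPM, Reg3b at 352 CPM and Reg3g at 206 CPM, above their 27.5, 77.8 and 27.4 CPM in the other epithelial cells. Reg3g was also above its 106 CPM in 5-gene-high cells, while Reg1 and Reg3b were below their 265 and 799 CPM there. Lor stood at 126 CPM, Sprr2a3 at 229 CPM and Efemp1 at 24.7 CPM. The part of such RNA in the UMIs of either set was not tested. Markers of other cell types were scarce in 5-gene-high cells: T cell markers had 0 UMIs in 409 cells, macrophage markers 41 UMIs and B and plasma cell markers 9 UMIs. Fibroblast markers had 93 UMIs, mostly of Vim, endothelial markers 243 UMIs and pericyte markers 116 UMIs. Of the 60 barcodes with the highest doublet scores, 8 were 5-gene-high cells (1.96% of the 409, 0.848 to 3.82) and 52 were other epithelial cells (2.24% of the 2320, 1.68 to 2.93).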

How the data were processed

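Intestinal adenoma organoids of 2 cultures were measured as 1 droplet library each. Per the labels' protocols and the submitters' processing notes, reads were aligned to mm10 and counted with Cell Ranger 2.1.1, while the header of the control matrix names Cell Ranger 3.1.0. The deposited matrices hold UMI counts for every barcode, with no cell filter or normalization, and were used as counts. Cells were taken by the limits given above. UMIs were summed per set of cells, scaled to CPM and compared as log2 ratios with a pseudocount of 1 CPM, which understates low genes, and folds were taken without it. Intervals are exact Poisson (sums), conditional Clopper-Pearson (ratios) and Clopper-Pearson (shares). The comparison script was tested on simulated data.

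Members, gene lists and rules were chosen with earlier results of these data known. Genes to be named were the genes of the rule, the 14 highest and 14 lowest ratios at 20 CPM or more (without mitochondrial, ribosomal and unnamed models), up to 4 genes per list with the largest ratios, and Epcam, Lgr5, Axin2, Mki67, Clu, Cdkn1a and Krt20. Further genes of the lists and the leading genes of subsets were added after their values had been seen. No cluster was made. Doublet scores came from scrublet (scanpy 1.11.5). Doublets were left in, and their removal was an alternative. Promoters are from RefSeq (GRCm38.p6), gene positions from GENCODE M21. The submitters' combined Seurat object was not analysed here.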

Additional observations from a re-analysis of the deposited data

How the results depend on the processing

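Each result was recomputed under 19 alternatives and, chosen after seeing the data, without the highest cell of each set for each gene. The count of higher genes was 12 and moved by over 1.5 times in 3: 19 with cells thinned to 5000 UMIs, 26 at 5 CPM or more and 22 with Reg3b out of the score. In the others it was 8 to 17. The count of lower genes was 41, 146 at 5 CPM or more and 22 at 50 CPM or more, and 33 to 60 in the others. Of these 41 genes 30 were again 2-fold lower with Sprr2a3 out of the score, 34 with a score from ranks and 36 after thinning. Of the 12 higher genes 6 were again higher without Sprr2a3 and with ranks. The 12 include the 5 genes of the rule, which the choice itself raises, so this overlap says nothing about stability. With ranks each of the 5 was at least 2.23-fold higher. Ccl5 reversed, with log2 ratios of −1.83 for the top 10%, −1.76 without Sprr2a3, −2.15 with ranks and −0.0773 without its highest cells. List medians kept their sign in every alternative for Wnt targets (−0.74 to −0.41), stem cell (−0.78 to −0.28), Paneth (−1.65 to −1.14) and fetal and regenerative genes (0.10 to 0.63). The simple keratin, secreted matrix, interferon, MHC class I, S phase, G2 and M phase and hypoxia medians changed sign in at least 1. Control cells at the limit numbered 20, 14 with the top 10% and 25 with the top 20%. The free RNA alternative subtracted 0% and 0.0289% of the profile and so says nothing about stability. Chosen on a random part of the UMIs and read in the other, Reg1 was 8.57-fold and Sprr2a3 5.16-fold higher. Both parts come from the same cells, 370 of the 409 were chosen again, and these genes made the score. The 2 ratios thus follow from the choice and support nothing. No paired analysis was possible because each group held 1 library. Depth limits low genes most, but 1 cell set the ratio of Ccl5 at 52.3 CPM.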

Other observations

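A single 5-gene-high cell held most of the Ccl5 of the whole set. Of 616 Ccl5 UMIs, 584 were in this Sprr2a3-led cell of 22382 UMIs, and the other 408 cells held 32. T lymphocytes and natural killer cells are the usual source of Ccl5, but Cd3d, Cd3e, Cd3g, Ptprc, Nkg7 and Gzmb had 0 UMIs in it. It carried 30 UMIs of Epcam, 78 of Krt8, 44 of Sprr2a3 and 142 of Pyy, the hormone of distal enteroendocrine cells. The highest of the other epithelial cells had 12 Ccl5 UMIs.

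AW112010, an interferon-inducible transcript, also stood at 46.7 CPM in Sprr2a3-led cells and 14.2 CPM in the other epithelial cells, with 133 of its 255 UMIs in 1 cell. Ifit1bl1, a gene of the interferon-induced Ifit family, stood 2.09-fold higher (1.61 to 2.68) in Reg-led than in other epithelial cells, with UMIs in 29 of the 118 Reg-led cells. The genes Aldh1a1 and Pmp22 were higher in both Reg-led and Lor-led cells, at 22.6 and 28.1 CPM and at 22.9 and 38.1 CPM, against 9.61 and 11.6 CPM in the other epithelial cells. Gsta1, a glutathione transferase, stood at 30.5 CPM in Lor-led and 8.72 CPM in the other epithelial cells (3.49-fold, 2.57 to 4.65), with 17 of 52 UMIs in 1 cell.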
